A study of Mus musculus with 8 samples.

Results

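The numbered zinc finger genes of the mouse carry the name Zfp followed by digits alone. Every gene so named in the deposited gene values of this cardiomyocyte study was taken, which gave 272 of 11367 genes. Zfp180 is described first and then set against the other 271. Zfp180 was chosen by its FPKM in these libraries, which were low in one of the groups compared here, so its values are given as a description, without a test.

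Most proteins with such names bind DNA through rows of C2H2 zinc fingers, short loops in which a pair of cysteines and a pair of histidines hold a zinc ion. Many also carry a KRAB domain, which recruits the corepressor Trim28, and Trim28 in turn brings the histone methyltransferase Setdb1 and HP1 proteins to the bound site. KRAB zinc finger proteins are best known for silencing transposable elements and lie in large gene clusters that grew by duplication. Members without a KRAB domain have varied roles as transcription factors, RNA-binding proteins or ubiquitin ligases.

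The cells were ventricular cardiomyocytes isolated from adult C57BL/6 mouse hearts, and the study's methods state that males were used. In 4 libraries the cells had been incubated for 24 hours in medium conditioned by CCR2+ cardiac macrophages. These macrophages had been sorted from the hearts of Ccr2gfp/+ mice 4 weeks after transverse aortic constriction (TAC), a surgical pressure overload, and had released their products into M199 for 24 hours. In the other 4 libraries the cells had been incubated for 24 hours in control M199 medium. Both media received (–)-Blebbistatin, which keeps the cells from contracting, an insulin, transferrin and selenium supplement, and a lipid supplement. The methods name serum for the M199 into which macrophages were sorted and none for control medium, so macrophage products and serum cannot be told apart. Whether the 4 libraries of each medium stem from different animals is not stated, so the p-values reflect library-to-library spread, possibly only technical.

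Values are FPKM, fragments scaled for transcript length and for library size, and their sum over genes was 321363 to 387597 in conditioned medium and 313169 to 347784 in control medium. The deposited FPKM carry no read totals. Log2 fold changes are conditioned minus control medium on the log2(FPKM + 1) scale, which understates the change of low genes. Conditioned-medium replicate 4 stood apart, with 63.0% of its FPKM in mitochondrially encoded genes, against 30.2% to 40.7% in the other 7 libraries. The cardiomyocyte markers, of which all 8 were measured and Myh6 is the defining one, had log2 fold changes below 0 with all 8 libraries, with a median of -0.48 that was -0.08 without that replicate, where 1 of the 8 was above 0. Their summed FPKM was 3263 to 7692 in conditioned medium and 5687 to 9116 in control medium. Log2 fold changes were above 0 for 10 of 10 endothelial and 8 of 8 fibroblast markers, 7 of 7 macrophage entries and 6 of 7 mural markers. The macrophage entries count Itgam under both of its gene entries, and Ptprc and Fcgr1 of the 8 macrophage markers listed were not measured. The endothelial sum was 230 to 398 FPKM in conditioned medium and 101 to 229 FPKM in control medium. The other sums overlapped between conditioned and control medium, at 43.3 to 51.8 and 14.7 to 49.5 FPKM for fibroblast, 136 to 152 and 21.1 to 161 FPKM for macrophage, and 79.7 to 142 and 110 to 173 FPKM for mural markers. In such bulk libraries fewer cells of a type and less RNA per cell cannot be told apart.

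Zfp180 (ENSMUSG00000057101.8) lies on the plus strand at chr7:24081924-24107713 of the mouse build GRCm38. It had 1.51, 1.10, 1.54 and 7.34 FPKM in conditioned-medium replicates 1 to 4, against 7.54, 4.71, 8.05 and 6.72 FPKM in control replicates 1 to 4. Conditioned-medium replicates 1 to 3 were thus below every control library, while replicate 4 lay among the controls, so the groups overlapped. The mean was 2.87 ± 2.99 FPKM in conditioned medium and 6.75 ± 1.47 FPKM in control medium (SD, n = 4 each), a log2 fold change of -1.23. Without replicate 4 the conditioned-medium mean was 1.38 ± 0.2496 FPKM (SD, n = 3), the log2 fold change was -1.69 and the ratio of means was 0.205. That replicate is also the one with the high mitochondrial share and the lowest cardiomyocyte markers, with a mean marker deviation of -1.30. It had the highest endothelial sum as well, at 398 FPKM. The part these play in its Zfp180 value was not tested.

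**Figure D1:**
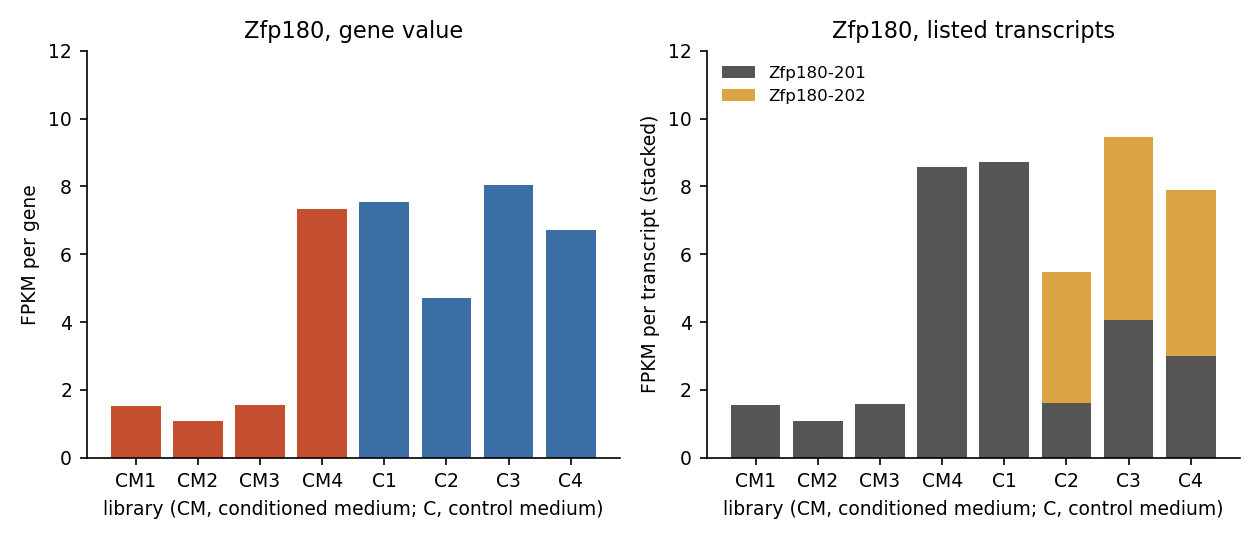
Zfp180 in each library, with the gene value in FPKM on the left and the FPKM of its listed transcripts stacked on the right. Bars of conditioned-medium libraries (CM1 to CM4) stand left of those of control libraries (C1 to C4), and CM1 to CM3 lie between 1.10 and 1.54 FPKM per gene while CM4 reaches 7.34.

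On the log2(FPKM + 1) scale Zfp180 had the lowest log2 fold change among the 272 numbered genes, and the next was Zfp568 at -0.88. The log2 fold changes of the other 271 had an SD of 0.20. Over all 11367 genes, 3 had a lower log2 fold change than Zfp180, and 1 did when conditioned-medium replicate 4 was left out. The rank in the family depended on the pseudocount. With a pseudocount of 0.1 Zfp708 was lower, at -1.69 against -1.61 for Zfp180. Zfp180 was among the better expressed members, as 51 had a higher mean over the 8 libraries. Its spread in conditioned medium was wide for the family, with an SD of 0.92 on the log2(FPKM + 1) scale, against a median of 0.21 over the other members. Only Zfp651 had a higher one, and its low library was also conditioned-medium replicate 4, at 3.61 FPKM against 11.8 to 18.7 FPKM in replicates 1 to 3. Zfp180 and Zfp651 thus left their group in the same library in opposite directions. In control medium the SD of Zfp180 was 0.30, against a median of 0.19.

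**Figure D2:**
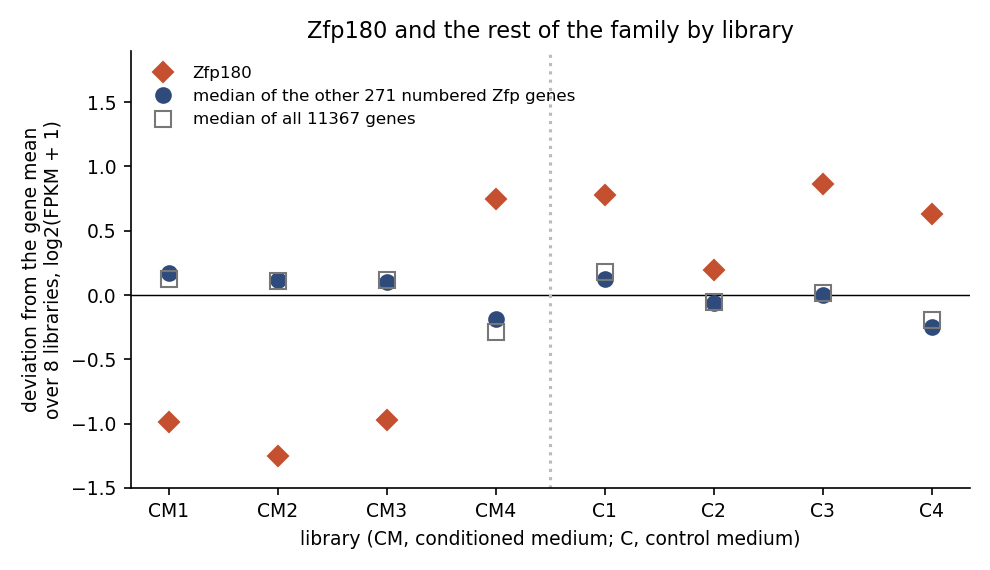
Deviation of each library from the gene's own mean over 8 libraries, on the log2(FPKM + 1) scale, for Zfp180, for the median of the other 271 numbered Zfp genes and for the median of all 11367 genes. Zfp180 is at -0.99, -1.25 and -0.97 in CM1 to CM3 and at 0.74 in CM4, while the family median stays between -0.25 and 0.17 in all libraries.

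The deposited transcript values split Zfp180 into Zfp180-201 and Zfp180-202, which differ at their outer ends and at the start of exon 4. Zfp180-201 begins at position 24081924 of chromosome 7 and ends at 24107713, Zfp180-202 runs from 24081954 to 24107692, and both end stretches lie outside the coding sequence. Exon 4 begins at 24101448 in Zfp180-201 and at 24101453 in Zfp180-202, 5 bases further on. The junction of exons 3 and 4 is shown because this small difference decides which protein is encoded. The sequences were read from the GENCODE transcripts of GRCm38, plus strand, and capitals mark the 5 bases of this window that only Zfp180-201 has.
Zfp180-201: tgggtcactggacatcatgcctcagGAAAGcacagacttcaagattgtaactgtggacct
Zfp180-202: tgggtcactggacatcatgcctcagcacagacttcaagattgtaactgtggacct
Both windows run from position 24097871 to 24097895 in exon 3 and on to 24101482 in exon 4.

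Losing 5 bases shifts the reading frame. The Zfp180-201 frame ran to 655 residues with 12 matches to the C2H2 finger pattern, all 12 of them encoded by exon 5. The annotated Zfp180-202 frame ended after 99 residues, at position 24104459 in place of 24106122, and held 0 finger matches. The transcript with fingers, Zfp180-201, had 1.57, 1.10, 1.58 and 8.57 FPKM in conditioned medium, against 8.72, 1.62, 4.07 and 2.99 FPKM in control medium. Its groups overlapped, as conditioned-medium replicate 4 lay among the controls. Conditioned-medium replicates 1 to 3 were below every control library, but control replicate 2 was close to replicates 1 and 3. The fingerless Zfp180-202 was listed at 0 in all 4 conditioned-medium libraries and in control replicate 1, and at 3.87, 5.40 and 4.89 FPKM in control replicates 2 to 4. In those 3 libraries it made up 70.6%, 57.0% and 62.0% of the transcript sum. The sum of both transcripts was 1.10 to 8.57 FPKM in conditioned medium and 5.49 to 9.46 FPKM in control medium. That this sum follows the gene values is no separate result, since most of the gene value can be recovered from both transcripts.

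The split between these transcripts is an estimate by StringTie, made between transcripts that differ only at this junction and at both ends, and a value listed at 0 can be a failed estimate. The gene value was recovered from both transcripts, weighted by length over the 4560 bases covered by annotated exons, up to a remainder. This was 11.4%, 14.4% and 12.2% of the gene value in conditioned-medium replicates 1 to 3, where that value was low. In the other libraries it was 0.180% to 1.34%. The annotation holds 3 further transcripts of the gene, which have no transcript value in the files.

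Zfp180 opens a row of zinc finger genes on chromosome 7, after a stretch of vomeronasal receptor genes that are not among the genes measured here. Its nearest measured neighbours, Zfp112, Zfp235 and Zfp111, were expressed at a lower level, with means over the 8 libraries of 0.661, 0.631 and 0.637 FPKM. Zfp112, the next gene on the same strand, averaged 0.607 ± 0.237 FPKM in conditioned medium and 0.715 ± 0.172 FPKM in control medium (SD, n = 4 each), a log2 fold change of -0.10. The log2 fold changes were 0.06 for Zfp235 and 0.10 for Zfp111. Over the whole run, chr7:24081924-25227507, the 9 other members had a median of 0.08, and 7 of the 9 were above 0. The lowest of the 9 was Zfp428, at -0.32.

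The family as a whole was expressed at low levels. Mean FPKM over the 8 libraries ran from 0.386 for Zfp820 to 44.4 for Zfp106, the median of the other 271 was 1.86 (4.78 over all genes), 70 members were under 1 FPKM and 15 were at 10 FPKM or more. Each deposited gene reached a mean of 0.5 FPKM in one of the media, so a member low in both media is not among them. GENCODE vM21 names 365 protein-coding genes in this way, of which 272 were measured.

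By sequence, 147 members had a match to a KRAB A box pattern and 125 had none, and the median number of C2H2 finger matches was 11, with 36 as the highest. Members with a KRAB match had a lower median level, 1.26 FPKM, than the others without one, 2.79 FPKM. Zfp180, with 12 fingers, had no match by this pattern but scored 8 of 21 fixed positions, between the low scores of most members without a match and the 13 or more of the matched ones. A total of 7 members had no finger match. One of these is Zfp36, tristetraprolin, which binds RNA through fingers of the CCCH type. Chromosome 7 held 69 members and chromosome 17 held 37, and 140 members lay in 17 runs of at least 5.

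In conditioned medium 1 of the other 271 members rose at an adjusted p below 0.05 with limma, which moderates each gene's variance, with Benjamini-Hochberg adjustment over all genes. Over all genes 0.554% rose by this rule. With limma 0 of the 271 fell, as did 0% of all genes, and 0 were lower at an unadjusted p below 0.05, where the share of all genes was 0.845%. A linear model with a library-size term called 0 members lower at an adjusted p below 0.05 as well, though 11 of the 271 were lower unadjusted, where the share of all genes was 11.7%. At an unadjusted p below 0.05 with limma, 17 of the 271 were higher, which is 6.27%, against 8.78% of all genes. Groups did not overlap for 9 of the 271 in the higher direction, or 3.32%, against 5.08% of all genes, and for 2 in the lower direction, where all genes had 1.46%.

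More members lay above 0 than below. Of the 271, 198 had a log2 fold change above 0, which is 73.1%, against 53.9% of all genes, and their median was 0.11, against 0.02 over all genes. It differed by expression level, in the family and in all genes. Members under 1 FPKM had a median of 0.14 with 87.1% above 0, beside 0.14 and 77.0% for all such genes. Members from 1 to 5 FPKM had 0.12 and 76.8%, beside 0.10 and 68.0%. The 50 members at 5 FPKM or more had -0.04 and 42.0%, beside -0.07 and 36.9%. A gene under 1 FPKM could reach the 0.5 FPKM limit of the deposited genes in only the medium where it was higher. Such low genes count in the 198, and whether that limit bears on their signs was not tested.

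The size of this lean depended on single libraries. The share of members above 0 stayed higher than that of all genes in the leave-outs where both shares are given below. Control replicate 4 was the lowest of the 8 libraries for 115 members (42.4%, against 29.4% of all genes), and conditioned-medium replicate 4 was the lowest for 107 (39.5%, against 50.3%). Without conditioned-medium replicate 4, 235 of 271 were above 0 (86.7%, against 76.7% of all genes). There 1 rose at an adjusted p below 0.05 with limma (0.757% of all genes) and 34 were higher unadjusted, or 12.5%, against 9.79% of all genes. Without control replicate 4, 165 were above 0 (60.9%, against 44.1% of all genes) and 7 were higher unadjusted (4.83% of all genes). Without control replicate 2 these counts were 200 (73.8%, against 51.7% of all genes) and 8 (4.48% of all genes). The count of 17 higher unadjusted also became 33 without control replicate 1 (15.8% of all genes). It was 10 without conditioned-medium replicate 2 (7.24% of all genes) and 9 without conditioned-medium replicate 3 (6.99% of all genes). With control replicates 2 and 4 both left out, 126 of 271 were above 0 (46.5%, against 33.9% of all genes). The median was then -0.02 and 3 were higher unadjusted (1.94% of all genes). Control replicates 2 and 4 were also the lowest 2 libraries in endothelial markers, with sums of 149 FPKM in control replicate 2 and 101 FPKM in control replicate 4, and whether cells other than cardiomyocytes contributed to the lean was not tested. Scaling moved the count both ways. It was 149 of 271 with the library-size term (40.4% of all genes), 129 after quantile normalization (44.5%) and 184 with size factors (49.6%). With equal nuclear totals and with array weights it was 224 each, against 66.9% and 74.7% of all genes.

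**Figure D3:**
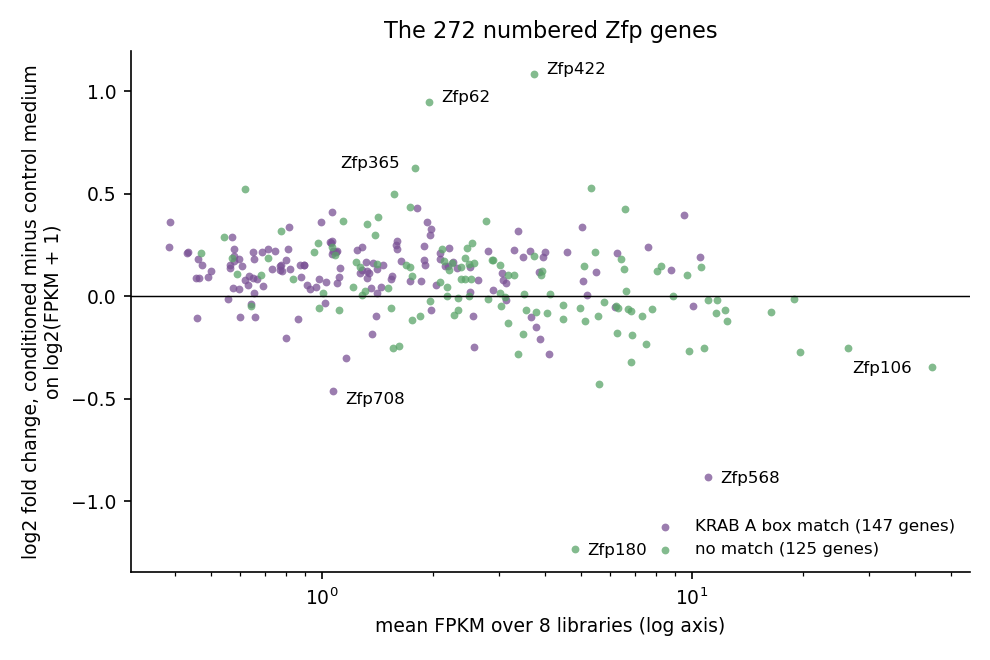
Log2 fold change, conditioned minus control medium, against mean FPKM over the 8 libraries (log axis) for the 272 numbered Zfp genes, coloured by a match to the KRAB A box pattern. Zfp180 is lowest at -1.23, Zfp422 and Zfp62 are highest at 1.08 and 0.95, and most members lie near 0.

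Members with a KRAB match had a median of 0.14, with 124 of 147 above 0, and the other 124 members apart from Zfp180 had a median of 0.05, with 74 above 0. The medians by finger number were 0.00 for 0 to 4 fingers, 0.10 for 5 to 9, 0.11 for 10 to 14 and 0.16 for 15 or more. As the members with many fingers were also less expressed, with a median of 1.29 FPKM at 15 or more fingers and 3.74 FPKM at 0 to 4, structure and level cannot be told apart here. The largest run, 21 members at chr17:21008941-23599487, had 18 above 0, a median of 0.19 and 3 higher at an unadjusted p below 0.05, against 53.9% of all genes above 0 and 8.78% higher. How the authors' counting divided reads among near-identical clustered genes is unknown, and 52 members overlap another gene on the same strand.

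Zfp62, at chr11:49203292-49218816 on the plus strand, was the member that rose. It encodes 25 C2H2 fingers by the pattern and no KRAB match. It had 3.02, 2.50, 2.15 and 3.89 FPKM in conditioned medium, against 1.03, 0.776, 1.36 and 0.854 FPKM in control medium. The lowest conditioned-medium library was above the highest control library, and replicate 4 was the highest of all. In limma the log2 fold change was 0.95 with a standard error of 0.17 and an adjusted p of 0.0300. Leaving out conditioned-medium replicate 4 gave 0.83 and an adjusted p of 0.0369 in limma. The call was lost in 12 of 18 other settings, where adjusted p-values from limma or the library-size model were 0.0505 to 0.717, and the direction was kept in all 18. Among the 12 were those without conditioned-medium replicate 1 or 2 and without control replicate 1, 2 or 4.

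Zfp62 is divided between 2 listed transcripts that encode a protein of the same 907 residues. Zfp62-203 had 3.10, 2.51, 2.45 and 3.06 FPKM in conditioned medium, against 0.608, 0.0897, 1.14 and 0.151 FPKM in control medium. Zfp62-201 had 2.96 FPKM in conditioned-medium replicate 4 and at most 0.464 FPKM in the other 7 libraries. By these values Zfp62-203 was higher in every conditioned-medium library than in any control library, and Zfp62-201 was high in conditioned-medium replicate 4 alone. This split is again an estimate by StringTie, between transcripts of 3852 and 3872 bases, and its reliability was not tested.

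Zfp422, with 5 fingers, stood highest in the family by log2 fold change, 1.08, but its controls were split. It had 5.37, 4.70, 5.13 and 4.78 FPKM in conditioned medium, against 5.67, 3.15, 0.589 and 0.461 FPKM in control medium. The conditioned-medium libraries were close together, while control replicate 1 was above all of them and control replicates 3 and 4 were far below. Its control SD on the log2(FPKM + 1) scale was the highest of the 272 members, and the difference did not pass (adjusted p = 0.436 from limma).

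The other members named for high log2 fold changes at an unadjusted p below 0.05 also missed the adjusted threshold, with limma adjusted p-values of 0.283 to 0.490. Zfp365, a binding partner of DISC1, had 2.09, 2.26, 2.47 and 2.56 FPKM in conditioned medium, against 1.98, 0.759, 1.36 and 0.779 FPKM in control medium, with no overlap (log2 fold change 0.63). Zfp513 had 4.86, 6.97, 6.93 and 7.11 FPKM in conditioned medium, against 4.50, 4.26, 4.83 and 3.14 FPKM in control medium (0.53). Its groups did not overlap either, but conditioned-medium replicate 1 was close to the highest control.

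Zfp503, a transcriptional repressor active in the developing striatum, had 0.871, 0.647, 0.624 and 1.54 FPKM in conditioned medium, against 0.556, 0.300, 0.294 and 0.138 FPKM in control medium (log2 fold change 0.52). With means of 0.920 and 0.322 FPKM, Zfp503 reached the 0.5 FPKM limit only in conditioned medium. How far that selection bears on its higher value there was not tested. Zfp366, known as DC-SCRIPT in dendritic cells, had 2.07, 1.20, 1.52 and 3.33 FPKM in conditioned medium, against 1.17, 1.19, 1.41 and 0.607 FPKM in control medium (0.50). Both were highest in conditioned-medium replicate 4, and without that library the log2 fold changes were 0.38 for Zfp503 and 0.31 for Zfp366. Zfp608, a repressor of Rag genes in thymocytes, and the KRAB genes Zfp935 and Zfp53 had log2 fold changes of 0.44, 0.43 and 0.41. In all of them control replicate 4 was the lowest library, at 0.614, 0.817 and 0.468 FPKM.

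**Figure D4:**
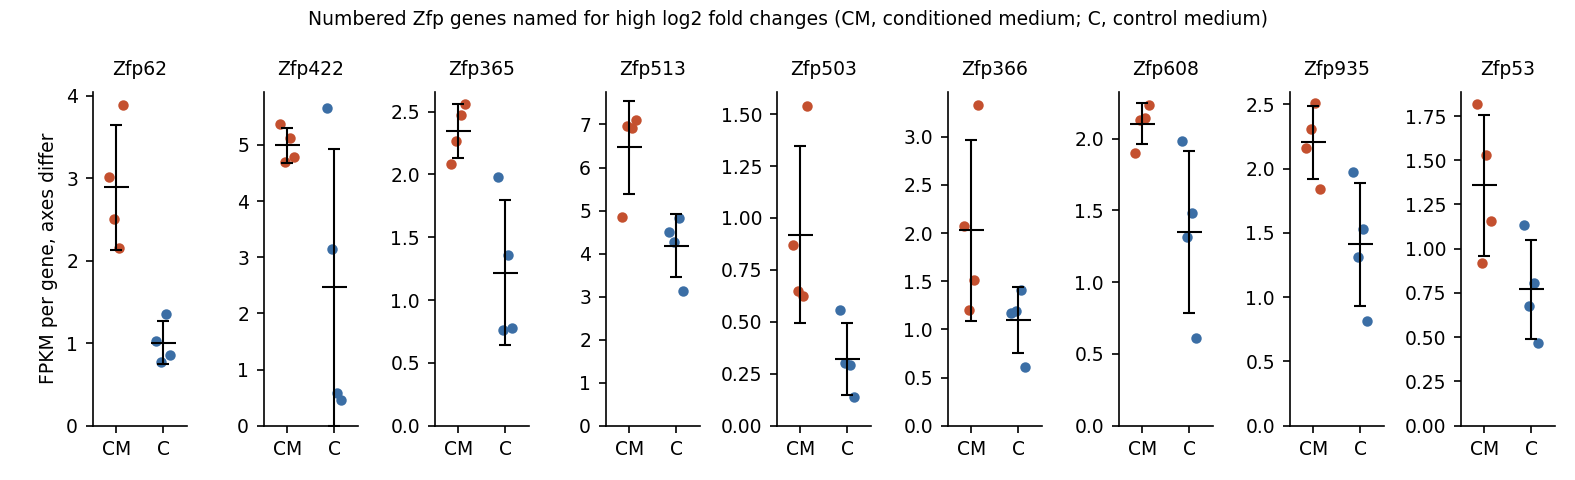
FPKM per library, with mean and SD (n = 4 each), of the 9 numbered Zfp genes named for high log2 fold changes, conditioned medium (CM) left of control medium (C), each gene on its own axis from 0. Groups are apart in Zfp62, Zfp365, Zfp513 and Zfp503, and Zfp422 has 1 control library at 5.67 FPKM above all conditioned-medium libraries. Zfp503 reached the 0.5 FPKM limit of the deposited genes in conditioned medium only.

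At the low end, Zfp568 came nearest to Zfp180. It is a KRAB protein known in the mouse for repressing a placental transcript of Igf2, lies at chr7:29983955-30028282 and has 11 fingers. It had 4.48, 12.3, 11.99 and 2.89 FPKM in conditioned medium, against 6.72, 16.4, 16.9 and 16.6 FPKM in control medium. Conditioned-medium replicates 1 and 4 and control replicate 1 formed a low set and the other 5 libraries a high set, so the split did not follow the medium. Its log2 fold change of -0.88 did not pass (limma, adjusted p = 0.537) and was -0.55 without conditioned-medium replicate 4. In the estimated transcript values the swing lay in Zfp568-202, at 3.45, 11.998, 11.9 and 1.21 FPKM in conditioned medium and 5.62, 16.5, 17.1 and 16.9 FPKM in control medium.

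Zfp708, another KRAB gene, was listed at 0 in conditioned-medium replicates 3 and 4. It was at 1.85 and 1.61 FPKM in replicates 1 and 2 and at 1.14 to 1.40 FPKM in control medium, and it overlaps other genes on the same strand. It was the only member listed at 0 in any library. Zfp346, which binds double-stranded RNA, averaged 4.69 ± 1.65 FPKM in conditioned medium and 6.51 ± 1.69 FPKM in control medium (SD, n = 4 each), a log2 fold change of -0.43 that was -0.21 without conditioned-medium replicate 4. Neither passed the test, with limma adjusted p-values of 0.704 for Zfp708 and 0.627 for Zfp346.

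The 2 members whose groups did not overlap in the lower direction were Zfp428 and Zfp622. Zfp428 had 5.10, 5.56, 6.61 and 6.42 FPKM in conditioned medium, against 7.03, 6.64, 6.63 and 10.7 FPKM in control medium. Zfp622, whose human counterpart acts in maturation of the large ribosomal subunit, had 7.0002, 7.25, 7.59 and 5.42 FPKM in conditioned medium, against 8.71, 7.65, 7.69 and 8.58 FPKM in control medium. In both genes the nearest libraries of the media almost met. Their log2 fold changes were -0.32 and -0.24, with limma adjusted p-values of 0.627 and 0.697.

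The 6 most abundant members had no KRAB match. Zfp106, an RNA-binding protein needed by motor neurons in mice, had 47.2, 52.5, 48.3 and 15.6 FPKM in conditioned medium, against 42.5, 53.6, 55.0 and 40.4 FPKM in control medium. Zfp91, a ubiquitin ligase of noncanonical NF-kappaB signalling, had 28.0, 28.0, 27.7 and 13.9 FPKM in conditioned medium, against 27.8, 29.9, 30.2 and 25.2 FPKM in control medium. In both genes conditioned-medium replicate 4 alone was low, below every other library. The log2 fold changes were -0.35 for Zfp106 and -0.25 for Zfp91 and became 0.05 and -0.01 without that library. Zfp146, made almost wholly of fingers, was also lowest there, at 12.8 FPKM against 20.0 to 21.7 FPKM in replicates 1 to 3 and 17.3 to 20.9 FPKM in control medium.

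Among these abundant genes, Zfp36 averaged 17.6 ± 3.45 FPKM in conditioned medium and 21.5 ± 4.33 FPKM in control medium (SD, n = 4 each). Zfp36 destabilises mRNAs of cytokines, and its log2 fold change of -0.27 did not pass (adjusted p = 0.722 from limma). Zfp598, the ubiquitin ligase that marks collided ribosomes, averaged 15.9 ± 1.60 and 16.8 ± 1.75 FPKM in conditioned and control medium. Zfp131, a BTB domain transcription factor, averaged 11.8 ± 1.24 and 13.001 ± 2.10 FPKM. None of the 6 most abundant members passed the test, with limma adjusted p-values of 0.722 to 0.984.

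No member named for a known chromatin or transcription role passed the test with limma. Zfp809, a KRAB protein that silences endogenous retroviruses in the mouse, averaged 5.24 ± 1.73 FPKM in conditioned medium and 4.90 ± 1.70 FPKM in control medium (SD, n = 4 each, adjusted p = 0.942 from limma). Zfp281, which works with the NuRD complex at pluripotency genes, had 6.02, 6.26, 5.86 and 5.64 FPKM in conditioned medium, against 5.44, 4.46, 4.90 and 5.14 FPKM in control medium. Its groups did not overlap, but the log2 fold change of 0.22 did not pass (limma, adjusted p = 0.697).

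Zfp592 and Zfp687, partners in a complex with ZMYND8, had log2 fold changes of -0.06 and 0.01. Zfp148, which binds GC-rich DNA, and Zfp143, a promoter-bound activator, had -0.03 and -0.07. Zfp462, which takes part in heterochromatin formation in embryonic stem cells, had 33 fingers and a log2 fold change of 0.21, and Zfp410, the activator of Chd4, had -0.01. Chd4 itself averaged 31.6 ± 7.26 FPKM in conditioned medium and 34.7 ± 5.87 FPKM in control medium (SD, n = 4 each), or -0.15 as log2 fold change (adjusted p = 0.847 from limma). Zfp292 was at 4.34, 3.75, 0.609 and 3.95 FPKM in conditioned medium, against 2.77 to 4.09 FPKM in control medium, so 1 library alone set its log2 fold change of -0.28, which was 0.13 without conditioned-medium replicate 3.

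Members that act on RNA or in muscle were likewise without a call in limma. Zfp207, a kinetochore and splicing protein, averaged 10.05 ± 0.976 FPKM in conditioned medium and 9.27 ± 0.656 FPKM in control medium (SD, n = 4 each). Zfp326, of a complex that links transcript elongation and splicing, had a log2 fold change of -0.13, and Zfp638, which silences unintegrated retroviral DNA, had 0.01. Zfp697, with a role in skeletal muscle regeneration, had 6.80, 8.23, 7.55 and 2.32 FPKM in conditioned medium, against 7.87, 6.95, 6.73 and 3.29 FPKM in control medium. It was low in replicate 4 of both media, and its log2 fold change of -0.05 was 0.29 without conditioned-medium replicate 4.

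The genes through which KRAB proteins act gave 0 calls at an adjusted p below 0.05 with limma among 37 measured of 39 listed, with 1 higher unadjusted (2.70%, against 8.78% of all genes), 0 lower and a median log2 fold change of 0.05. When conditioned-medium replicate 4 was left out, 4 of the 37 were higher unadjusted (10.8%, against 9.79% of all genes), and the median was 0.09. The scaffold Trim28 averaged 30.3 ± 2.45 FPKM in conditioned medium and 32.9 ± 2.39 FPKM in control medium (SD, n = 4 each). Setdb1 averaged 4.77 ± 0.731 and 5.06 ± 0.562 FPKM in conditioned and control medium. Their log2 fold changes were -0.12 and -0.07, with limma adjusted p-values of 0.836 and 0.904.

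The gene of this list that passed unadjusted was the deacetylase Hdac1, with 10.1, 8.90, 9.19 and 12.4 FPKM in conditioned medium, against 8.88, 6.15, 7.12 and 5.66 FPKM in control medium. Its lowest conditioned-medium library was barely above its highest control (log2 fold change 0.49, adjusted p = 0.426 from limma). The DNA methyltransferase Dnmt3a, the histone-binding protein Rbbp7 and Uhrf1, which maintains DNA methylation, had log2 fold changes of -0.37, -0.31 and 0.46, with limma adjusted p-values of 0.591, 0.598 and 0.627.

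Of zinc finger transcription factors with other names, 36 of 42 listed were measured. With limma 0 passed the adjusted test, 3 were higher unadjusted (Klf10, Mecom and Gli3), against 8.78% of all genes, and 0 lower, with a median of 0.08. Gli3, at means of 0.683 FPKM in conditioned and 0.360 FPKM in control medium, reached the 0.5 FPKM limit only in conditioned medium. Of the Zfp36 family, 3 of 4 were measured, and 0 passed in either direction, adjusted or unadjusted. Zfp36, Zfp36l1 and Zfp36l2 had log2 fold changes of -0.27, -0.29 and 0.18.

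An uneven division between transcripts, as in Zfp180, was common. The files list 427 transcripts for 264 of the members, and 111 members had more than 1. Of the 427, 92 transcripts in 73 members were listed at 0 in a library and at 1 FPKM or more in another, which is 21.5%, against 17.7% of all transcripts. Zfp131 gives the clearest case among the named genes. Its gene value stayed between 10.1 and 15.7 FPKM, but Zfp131-203 had 14.7, 8.45, 8.78 and 8.60 FPKM in conditioned medium, against 1.48, 0.161, 0.608 and 19.2 FPKM in control medium. The gene value of Zfp131 was thus steadier than its parts.

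Few members varied across libraries the way Zfp180 did. The Pearson correlation with Zfp180 over the 8 libraries on the log2(FPKM + 1) scale had a median of -0.43 over the other 271 members and -0.33 over all other genes. It was above 0 for 27 members, or 9.96%, against 12.2% of all genes. These correlations carry no test, since the libraries share their scaling and conditioned-medium replicate 4 stands apart in most genes. The members most like Zfp180 were Zfp451, a SUMO ligase (0.64), Zfp668 (0.60) and Zfp428 (0.57). Zfp451 had 1.58, 1.40, 1.32 and 2.30 FPKM in conditioned medium, against 1.504, 2.05, 1.67 and 2.20 FPKM in control medium, a far smaller range than that of Zfp180.

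Outside the family Sox4, an HMG box transcription factor, was the closest of all genes with a correlation of 0.96. It had 18.9, 16.5, 16.8 and 23.4 FPKM in conditioned medium, against 22.5, 20.4, 22.8 and 21.7 FPKM in control medium. Like Zfp180, it was lower in conditioned-medium replicates 1 to 3 than in every control library and not in replicate 4, a likeness for which it was picked. Rprd1b, a protein that binds the RNA polymerase II tail, came next (0.88), with 1.39, 1.37, 1.36 and 3.08 FPKM in conditioned medium and 5.31, 1.55, 4.94 and 3.86 FPKM in control medium. The third was Ldlrad3 (0.82). These genes were picked for following Zfp180, itself chosen by its values in these groups, so they are described without a test.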

How the data were processed

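RNA was sequenced from 4 conditioned-medium and 4 control libraries. The authors removed adaptors (cutadapt), mapped to GRCm38 (HISAT2), assembled abundances (StringTie) and deposited FPKM per gene and per transcript (Ballgown), with versions not given in the sources used here. One empty line of the 11368 gene lines is not reported here, and 10 symbols with 2 entries were kept apart. FPKM carry no read totals, and the read number the methods give for the sequencing service is not a depth per library, so error is the spread between libraries.

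Differences were tested two-sided with limma 3.58.1 (trend) in R 4.3.3 on log2(FPKM + 1), adjusted over 11367 genes. Members, lists and the rule for named genes were chosen with earlier results of these data known. Named were genes past the adjusted test, those with the highest log2 fold changes past the unadjusted test, the 6 most abundant, the lowest, those nearest Zfp180 in log2 fold change or pattern, members with known roles, and genes of the silencing list. Of that rule Zfp423 was not measured. Zfp651, Zfp112, Zfp235, Zfp111, Chd4, Klf10, Mecom, Gli3, Zfp36l1 and Zfp36l2 were added after their values were seen.

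Fingers (C, 2 to 4 residues, C, 12, H, 3 to 5, H) and KRAB matches (13 of 21 positions, set after seeing the scores) were counted in translated GENCODE vM21 coding sequences, in which 246 members had the deposited locus. Alternatives were a pseudocount of 0.1, a 1 FPKM filter, other scalings, array weights, a library-size term, a replicate block, summed transcripts and each library left out. Leaving out control replicates 2 and 4 together was chosen after seeing the data. The fits were also run on simulated data with known changes and independent noise. These held no outlying library like conditioned-medium replicate 4, so they do not bear on its influence.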

Additional observations from a re-analysis of the deposited data

Results flagged for a closer look

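In groups of 4 libraries, 12 of 78 groups (39 named genes, each medium) held a library further from the others than Dixon's 95% limit on the log2(FPKM + 1) scale. Zfp180 and the genes picked for following it were left out. The limit flags about 1 in 20 groups by chance, but some of the 39 genes were named for their values in these libraries, so 12 is not read against that rate. Of the 12, 8 were in conditioned-medium replicate 4.

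That library was low for Zfp106 at 15.6 FPKM (47.2 to 52.5 in the other 3), Zfp91 at 13.9 FPKM (27.7 to 28.0), Zfp146 at 12.8 FPKM (20.0 to 21.7), Zfp598 at 13.5 FPKM (16.4 to 17.0), Zfp638 at 2.38 FPKM (3.75 to 4.07) and Zfp697 at 2.32 FPKM (6.80 to 8.23). It was also low for Setdb1 at 3.69 FPKM (4.98 to 5.27) and Uhrf1 at 0.889 FPKM (2.70 to 3.07).

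Elsewhere in conditioned medium, Zfp513 was low in replicate 1 at 4.86 FPKM (6.93 to 7.11) and Zfp292 was low in replicate 3 at 0.609 FPKM (3.75 to 4.34). In control medium, replicate 1 was low for Zfp568 at 6.72 FPKM (16.4 to 16.9) and high for Zfp410 at 2.78 FPKM (2.18 to 2.22).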

How the results depend on the processing

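Of the calls, the count of all genes that rose (63) became 882 with array weights, 0 with a library-size term, 2 without control replicates 2 and 4, and 31 to 110 with 1 library left out, lowest without control replicate 2 and highest without control replicate 1. The count of numbered genes (1) became 13 with array weights and 0 under equal nuclear totals, size factors, quantile normalization, the library-size term, the replicate block, summed transcripts and without control replicates 2 and 4, and was 0 to 1 with 1 library left out. It was 0 without conditioned-medium replicate 1 or 2 or control replicate 2 or 4. Array weights gave conditioned-medium replicate 4 a weight of 0.083. With them 4 of 37 silencing genes and 3 of 36 other zinc finger factors passed, against 0 each as reported. In that setting 882 of all 11367 genes rose. The family median turned to -0.0094 with quantile normalization and -0.017 without control replicates 2 and 4. Zfp180 kept its sign throughout, at -1.70 to -1.02, but Zfp708 was lower than Zfp180 with a pseudocount of 0.1. The cause of these shifts was not tested. Replicate numbers are shared between the media, but deviations of same-numbered libraries correlated at -0.176 to 0.259, over 0.1 in 1 of 4 pairs, and 2 of 8 libraries matched their own number best, so the block served only as an alternative.

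Uncalled log2 fold changes changed sign, mostly ones near 0 but also those of Zfp106 (-0.35) and Zfp292 (-0.28). Equal nuclear totals gave 0.089 for Zfp146, 0.027 for Zfp598, 0.0076 for Zfp668, 0.037 for Zfp592, 0.066 for Zfp148, 0.067 for Zfp410, 0.029 for Zfp697, 0.020 for Zfp143 and 0.015 for Setdb1. Array weights gave 0.18 for Zfp146, 0.0040 for Zfp598, -0.0043 for Zfp687, 0.0095 for Zfp148, 0.097 for Zfp410, 0.22 for Zfp697 and 0.064 for Zfp143. Quantile normalization gave 0.044 for Zfp146, -0.14 for Zfp687, -0.095 for Zfp638 and -0.0044 for Zfp809. The library-size term gave -0.052 for Zfp687, -0.083 for Zfp638 and -0.16 for Zfp809, size factors -0.0081 for Zfp687 and -0.022 for Zfp638, and summed transcripts 0.028 for Zfp410. Without control replicates 2 and 4 the values were 0.022 for Zfp451, -0.084 for Zfp687, -0.038 for Zfp638 and -0.22 for Zfp809. With 1 library left out, values ran from -0.51 to 0.054 for Zfp106, -0.083 to 0.16 for Zfp146, -0.079 to 0.056 for Zfp148, -0.45 to 0.13 for Zfp292, -0.053 to 0.065 for Zfp410, -0.048 to 0.15 for Zfp638, -0.069 to 0.063 for Zfp687, -0.28 to 0.29 for Zfp697, -0.093 to 0.31 for Zfp809, -0.14 to 0.046 for Zfp143 and -0.13 to 0.023 for Setdb1.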
